A study of Mus musculus with 2 samples.

Results

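The 10 genes described here are of the Notch pathway, measured on the arrays of mouse embryonic stem cells (mESCs) grown with LIF or with LIF and CHIR99021 (CHIR), the latter written LIF/CHIR. They are the receptors Notch1, Notch2 and Notch3, the ligands Dll1, Dll3, Jag1 and Jag2, and the target genes Hes1, Hes5 and Hey1. The genes were found by symbol in the longer of the deposited tables, where each of the 10 has 1 of the 30774 gene identifiers. Both cultures are labelled as B6 mESCs, of C57BL/6 origin, from the inner cell mass of E3.5 embryos. LIF is the cytokine that activates Stat3 in these cells, and CHIR is an inhibitor of GSK3, the kinase that marks β-catenin for breakdown. One culture was grown in serum medium with LIF, the other with LIF and CHIR, with a treatment time of 12 h in the labels. The growth note shared by both samples names LIF/CHIR99021, and only the titles and the treatment note separate the conditions. No dose of CHIR is given for the arrays, and the culture methods of the study describe a different line, 46C. Each condition has 1 array, so differences between the conditions are given as values, untested and without a repeat.

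Notch signaling works between neighboring cells. Ligands of the Delta-like and Jagged families on a sending cell bind Notch receptors on a receiving cell, ADAM proteases and the γ-secretase complex then cut the receptor, and its intracellular domain moves to the nucleus. There it joins the DNA-binding protein RBPJ and turns on genes of the Hes and Hey families, which encode basic helix-loop-helix repressors. In mESCs, activation of the pathway is known to favor commitment to the neural lineage, and Hes1 can also be driven by signals other than Notch. GSK3, the kinase that CHIR inhibits, is known to phosphorylate Notch intracellular domains as well as β-catenin.

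Of the 10 genes, 5 were detected on at least 1 array, that is, with a detection p-value under 0.01 against the negative control beads, beside 31.2% of all 30774 identifiers. These were Notch3, Dll1, Jag2, Hes1 and Hey1. Among these 5, Hes1 was at least 1.5-fold higher in LIF/CHIR, Dll1 was at least 1.5-fold lower, and Notch3, Jag2 and Hey1 lay under that limit. Of all 9615 detected identifiers, 3.0% passed the limit upward and 3.16% downward, or 6.16% in either direction. The median log2 fold change was 0.11 over the 5 and 0.00 over all detected identifiers. The other 5 genes, Notch1, Notch2, Dll3, Jag1 and Hes5, were detected on neither array and have no fold change. Detection on at least 1 array admits a gene through its brighter array, and the count among the genes that passed is given as a description.

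**Figure D1:**
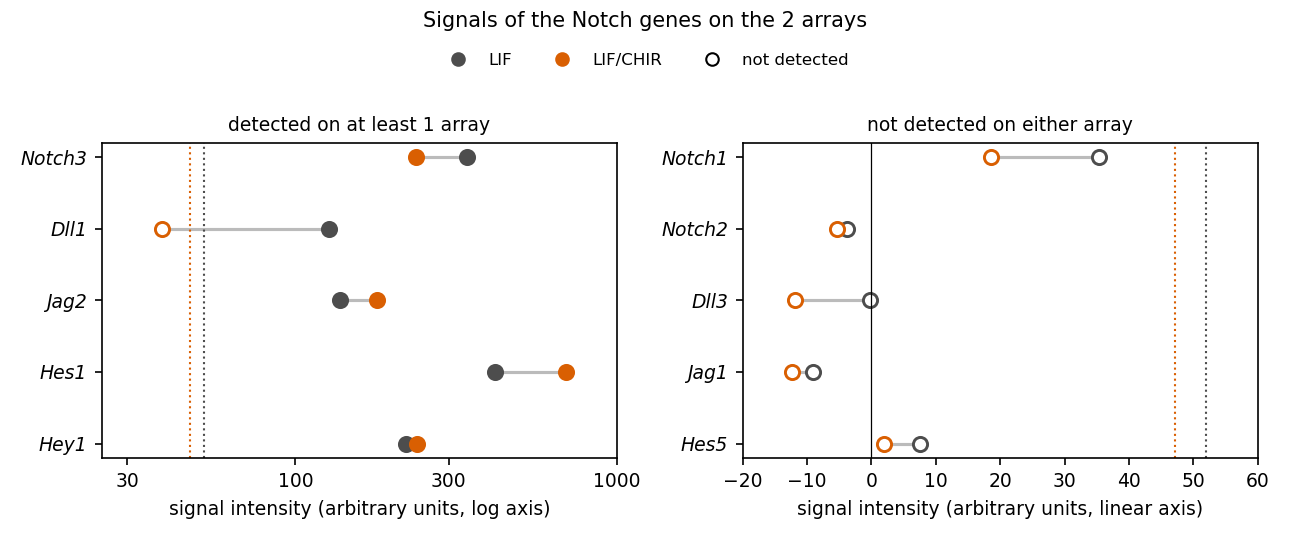
Signal intensity of the 10 Notch genes on the LIF array (gray) and the LIF/CHIR array (orange), with open circles where the detection p-value was 0.01 or more. The left panel (log axis) shows the 5 genes detected on at least 1 array and the right panel (linear axis) the other 5. Dotted lines mark the dimmest signal that counted as detected among identifiers with 1 probe (51.9 for LIF, 47.1 for LIF/CHIR). Dll1 crosses these lines from 127.5 to 38.4, whereas Hes1 moves from 416.4 to 694.2. Notch2 and Hes5 appear to have several probes, for which the lines do not apply.

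Among the receptors, Notch3 was detected and the other two were not. Notch3 (Entrez gene 18131, cytoband 17qB1) had a signal of 341.3 in LIF and 237.1 in LIF/CHIR, with a detection p-value of 0 on both arrays. The signal with CHIR was 1.44-fold lower (log2 fold change -0.53), just inside the 1.5-fold limit. Of 2339 detected identifiers whose brighter signal was 300 to 1000, 3.33% had a log2 fold change at least as low. Notch1 (Entrez gene 18128, 2qA3), a receptor often mutated in T cell leukemia, had a signal of 35.4 in LIF with a detection p-value of 0.0449. In LIF/CHIR its signal was 18.5, with a detection p-value of 0.135. Both Notch1 signals lay below the dimmest signals that counted as detected (51.9 and 47.1). Notch2 (Entrez gene 18129, 3qF2.2) was at background on both arrays, with signals of -3.85 and -5.42 and detection p-values of 0.441 and 0.592. A signal below 0 means that the beads were dimmer than the subtracted background.

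Among the ligands, Dll1 differed most between the arrays. Dll1 (Entrez gene 13388, 17qA2), a Delta-like ligand needed for somite formation in the embryo, had a signal of 127.5 in LIF, above all negative controls. In LIF/CHIR its signal was 38.4, with a detection p-value of 0.031, so that it was not detected there. Set against the lowest detected signal of that array (47.1), Dll1 was at least 2.71-fold lower with CHIR (log2 fold change -1.44). This bound holds for the deposited signals only, and some other ways of processing them gave a smaller fall. The ratio of the deposited signals themselves gave a log2 fold change of -1.73. Of the 9615 detected identifiers, 4.59% were detected in LIF only, as Dll1 was. Of 2182 detected identifiers whose brighter signal was 100 to 300, 4.81% passed the limit downward and 0.458% had a log2 fold change at least as low as that of Dll1. In these cultures fewer cells with a transcript and less of it per cell cannot be told apart.

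Jag2 (Entrez gene 16450, 12qF1), a ligand of the Jagged family, was detected on both arrays with a detection p-value of 0. Its signal was 137.7 in LIF and 180.1 in LIF/CHIR, 1.31-fold higher with CHIR (log2 fold change 0.39). This lay under the limit, and 9.53% of the 2182 identifiers in the same range of signal were at least as high. Both remaining ligands were at background. Jag1 (Entrez gene 16449, 2qF3), known as a β-catenin target in other tissues, had signals of -9.01 in LIF and -12.3 in LIF/CHIR, with detection p-values of 0.675 and 0.828. Dll3 (Entrez gene 13389, 7qA3), a divergent Delta-like protein that acts within the cell that makes it, had signals of -0.278 and -11.8, with detection p-values of 0.365 and 0.794. The detected ligands thus had log2 fold changes of opposite sign, with Dll1 past the limit and Jag2 under it.

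**Figure D2:**
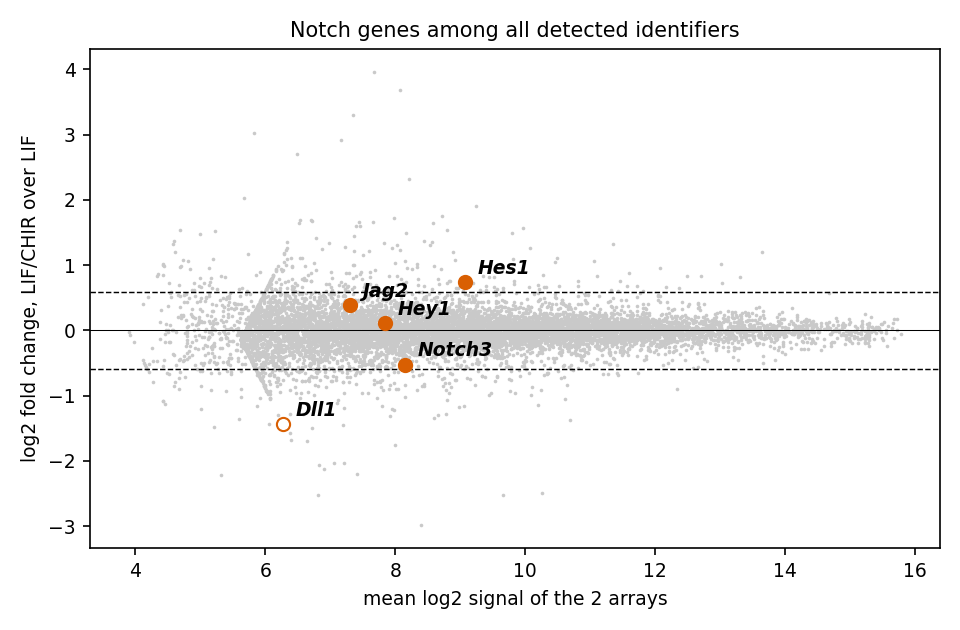
Log2 fold change of LIF/CHIR over LIF against the mean log2 signal of both arrays for the 9615 detected identifiers (gray points), with the 5 detected Notch genes in orange. Dashed lines mark 1.5-fold. Hes1 (0.74) lies above the upper line and Dll1 (-1.44, open, a bound because it was not detected with CHIR) below the lower line, and Notch3 (-0.53), Jag2 (0.39) and Hey1 (0.11) lie between them.

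Among the target genes, Hes1 and Hey1 were detected on both arrays and Hes5 on neither. Hes1 (Entrez gene 15205, 16qB2), a repressor that oscillates in many progenitor cells by repressing its own promoter, had a signal of 416.4 in LIF and 694.2 in LIF/CHIR. Its signal was 1.67-fold higher with CHIR (log2 fold change 0.74), with a detection p-value of 0 on both arrays. In the range of 300 to 1000, 2.78% of the 2339 identifiers passed the limit upward, and 1.75% had a log2 fold change at least as high as that of Hes1. Hey1 (Entrez gene 15213, 3qA1), a related repressor known from blood vessel development, had signals of 221.5 in LIF and 238.8 in LIF/CHIR, a log2 fold change of 0.11. Of the 2182 identifiers with a brighter signal of 100 to 300, 33.7% were at least as high as Hey1. Hes5 (Entrez gene 15208, 4qE2), the target most closely tied to Notch in neural progenitors, had signals of 7.54 in LIF and 1.97 in LIF/CHIR. Its detection p-values were 0.116 and 0.219, so no direction was assigned to it. Of the 3 targets, 1 was therefore past the limit, 1 was under it and 1 was not detected.

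The promoters available for the 10 genes were read for letters that proteins of the pathway recognize. Of the 10 genes, 8 had a promoter in the RefSeq table of assembly GRCm38.p6, with 9 transcription starts in all. Hes1 and Hey1 had no entry. The 250 bases before each start were searched on both strands for the RBPJ core (TGGGAA), the N-box bound by Hes repressors (CACNAG), the E-box bound by many basic helix-loop-helix proteins (CANNTG) and a core of the TCF factors that work with β-catenin (CTTTGA). The windows of Dll1 and Notch3 are shown because their signals were the 2 that were lower with CHIR among the detected genes. Capitals mark E-boxes in Dll1 and N-boxes in Notch3, and both sequences run 5′ to 3′ on the minus strand, with Dll1 at chr17:15376933-15377182 and Notch3 at chr17:32166897-32167140. The Notch3 sequence is 244 of the 250 bases, without the 6 that lie inside the annotated gene.
Dll1: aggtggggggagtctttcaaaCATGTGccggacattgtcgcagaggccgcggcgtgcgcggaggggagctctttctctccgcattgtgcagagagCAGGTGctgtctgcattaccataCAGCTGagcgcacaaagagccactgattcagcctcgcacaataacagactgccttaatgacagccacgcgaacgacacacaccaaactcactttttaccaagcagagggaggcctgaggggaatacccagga
Notch3: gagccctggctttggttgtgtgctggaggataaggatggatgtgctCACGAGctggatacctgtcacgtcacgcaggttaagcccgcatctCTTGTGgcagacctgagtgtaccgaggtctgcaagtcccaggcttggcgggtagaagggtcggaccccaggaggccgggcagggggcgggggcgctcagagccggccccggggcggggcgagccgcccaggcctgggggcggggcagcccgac

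The Dll1 window held 3 E-boxes, which began 229, 155 and 132 bases before the start, and E-boxes were found in 66.2% of all 32851 windows of that length. The Notch3 window held 2 N-boxes, 204 and 159 bases before the start, against 36.7% of all windows with at least 1. Neither window held the RBPJ core or the TCF core, which were found in 21.6% and 13.8% of all windows. A second Dll1 start, whose window lies inside the annotated gene, held 1 E-box and none of the other motifs. The Jag2 window, also inside its annotated gene, held no match. The windows of Dll3, Jag1 and Hes5 also held E-boxes, and those of Notch1 and Notch2 held N-boxes, all in genes detected on neither array. Among the 9 windows, the RBPJ core was found only in that of Hes5, with 2 matches, and the TCF core in none. The Hes5 matches are shown with 10 bases on either side, as the letters through which RBPJ is known to bind target genes. They lie on the plus strand at chr4:154960687-154960712 and chr4:154960831-154960856, inside the annotated span of the gene. The RBPJ core is in capitals and reads on the opposite strand in the first of them. No match in these windows overlapped one of another motif. A match of letters describes these windows only and shows no binding.
Hes5, 226 bases before the start: ggcgagcgcgTTCCCAcagcccggac
Hes5, 82 bases before the start: ccgccgagtgTGGGAAcggccgcggc

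Other genes of the pathway were compared by role. The 7 lists by role held 60 further genes, of which 56 were on the array and 29 were detected. Of these 29, 1 passed the limit upward and 1 downward, or 6.9%, beside the 6.16% of all detected identifiers. Their median log2 fold change was -0.024, close to that of all detected identifiers. The gene that passed upward was Dner, a transmembrane protein of the Delta and Notch-like family best known from neurons. Dner had a signal of 76.1 in LIF and 181.6 in LIF/CHIR (log2 fold change 1.26), and 0.458% of all detected identifiers were at least as high. The gene that passed downward was Hes6, which is known to counteract Hes1. Hes6 had a signal of 574.0 in LIF and 330.2 in LIF/CHIR (log2 fold change -0.80), and 1.27% of all detected identifiers were at least as low. Hes1 and Hes6 were thus past the limit in opposite directions on these arrays. With a normexp background correction fitted on all identifiers, both lay under it, at 0.29 and -0.24, as did Dner at 0.093. Kat2a (0.62) and Mib2 (-0.71) were then the wider pathway genes past it. That fit gave a background SD of 588.4 in LIF, against 15.4 when fitted on identifiers with 1 probe. Both fits used signals that were already background-subtracted, and why their backgrounds differ was not tested.

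**Figure D3:**
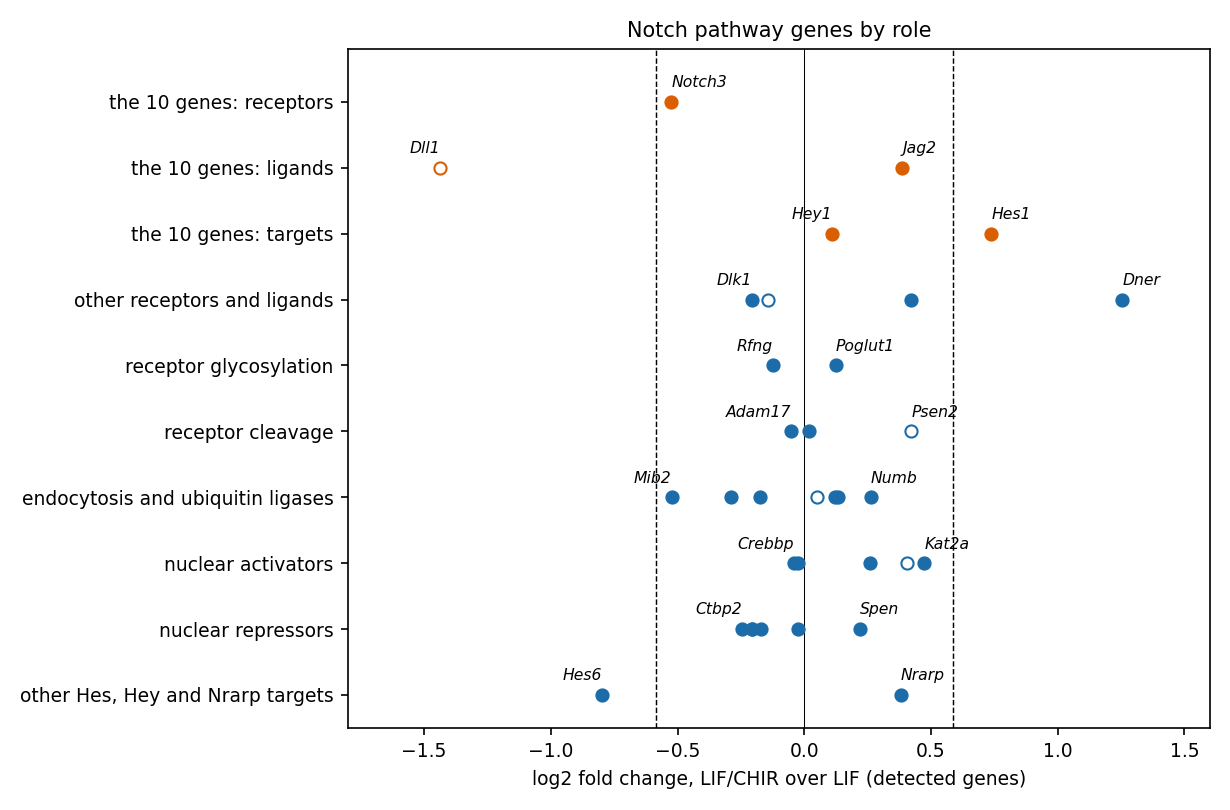
Log2 fold change of LIF/CHIR over LIF for detected Notch pathway genes, grouped by role, with the 5 detected genes of the 10 in orange and 29 further genes in blue. Open circles are genes detected on only 1 array, and dashed lines mark 1.5-fold. Hes1 and Dner (1.26) lie past the upper line, Dll1 and Hes6 (-0.80) past the lower line, and the other genes lie between -0.53 and 0.47.

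Apart from Dner and Hes6, each detected gene of the 7 lists had a value under 1.5-fold. For Maml2 (37.4 in LIF, not detected, and 68.7 in LIF/CHIR) the log2 fold change of 0.40 is a lower bound. The plain ratio of its signals gave 0.88, which is past the limit. Among other receptors and ligands, 4 of 5 genes were detected, and the lowest log2 fold change was -0.21 for Dlk1, a Delta-like protein without the domain that binds Notch. Notch4 (407.6 in LIF and 545.7 in LIF/CHIR, log2 fold change 0.42) was, beside Notch3, the other receptor with a detected signal. Among 5 genes of receptor glycosylation, which tunes the response to Delta and Jagged ligands, Poglut1 (0.13) and Rfng (-0.13) were detected. Among 10 genes of receptor cleavage, 3 were detected, from -0.05 for the protease Adam17 to 0.42 for Psen2, a catalytic subunit of γ-secretase that was not detected in LIF. Among 10 genes of endocytosis and ubiquitin ligases on the array, 7 were detected. The lowest was Mib2, a ligase that promotes endocytosis of ligands in the sending cell, with signals of 3281 in LIF and 2283 in LIF/CHIR (log2 fold change -0.52). The highest was Numb, an inhibitor of Notch, with a log2 fold change of 0.26.

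In the nucleus, activators and repressors of RBPJ target genes were compared in the same way. Of 9 activators, 5 were detected, with a median log2 fold change of 0.26 (that of Snw1), beside -0.0039 over all detected identifiers. With Maml2 at its lower bound, the activators ran from -0.04 for the acetyltransferase Crebbp to 0.47 for the acetyltransferase Kat2a. The signals of Kat2a were 2429 in LIF and 3373 in LIF/CHIR. Of 10 repressors on the array, 6 were detected, with a median of -0.19. They ran from -0.25 for the corepressor Ctbp2 to 0.22 for Spen, a corepressor that binds RBPJ. Both medians rest on few genes, each with a value under 1.5-fold, and their difference was not tested. Rbpj itself was not detected, with signals of 5.81 and 1.38 and detection p-values of 0.295 and 0.482. Besides Hes6, the only other detected gene among 7 further targets was Nrarp, a feedback inhibitor of the Notch intracellular domain. Nrarp had a signal of 177.7 in LIF and 231.2 in LIF/CHIR (log2 fold change 0.38). Of the 27 undetected genes of the wider lists, 8 had signals on both arrays that would have counted as detected for a single probe. All 8 appear to have several probes, whose combined detection p-values can stay high at a bright signal, and the plain ratio of none of them reached 1.5-fold.

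The labels of both cultures were set against marker genes. Of 9 mESC markers, 7 were detected on both arrays, with Pou5f1 at 12346 in LIF and 11309 in LIF/CHIR. Sox2 (441.2 and 400.2, detection p-values of 0.0503 and 0.276) and Tdgf1 (26.6 and 14.6, 0.0737 and 0.158) were detected on neither array. Sox2 appears to have several probes, and a marker not detected here is not shown to be absent. Fgf4, a growth factor gene of the same list, was past the limit with a log2 fold change of -0.73. The other 6 detected markers lay under it, from -0.49 for Utf1 to 0.55 for Nanog, with 3 of the 7 above 0 and 4 below. Axin2, a feedback target of β-catenin, was higher with CHIR (314.1 in LIF and 1178 in LIF/CHIR, log2 fold change 1.91). Sp5 (log2 fold change of at least 3.96, not detected in LIF) and Cdx1 (3.68) were also higher, whereas Lef1 and Nkd1 were not detected. None of 6 fibroblast markers was detected, and their summed signal was 213.9 in LIF and 214.7 in LIF/CHIR. Thy1 alone had signals of 222.3 and 225.3, with detection p-values of 0.354 and 0.302. Of 5 neural progenitor markers, 1 was detected, Nes in LIF/CHIR only (27.7 and 44.8, log2 fold change 0.69), with a summed signal of 61.3 and 102.9. Sox1, Pax6, Neurog2 and Tubb3 were not detected. The sums differed mostly through Sox1 (-7.23 in LIF and 28.9 in LIF/CHIR, detection p-values of 0.604 and 0.0641). From LIF to LIF/CHIR, Sox1 differed by 36.2 and Nes by 17.1, against -9.00 for Pax6, -2.26 for Neurog2 and -0.46 for Tubb3. Apart from Nes, the difference between these sums thus rests on undetected genes. Of 6 primitive endoderm markers, Sox7 alone was detected and lay under the limit, with a summed signal of 131.1 and 117.2. Of 6 mesoderm markers, 2 were detected in LIF/CHIR only, T (8.05 and 394.5, at least 2.93 on the log2 scale) and Gsc (12.5 and 63.7, at least 0.29). The summed signal of this list was 17.5 in LIF and 496.0 in LIF/CHIR, with Mixl1, Eomes, Tbx6 and Mesp1 undetected. Of the mesoderm markers, T was past the limit, whereas the value of Gsc is a lower bound that does not place it on either side. The plain ratio of the Gsc signals gave a log2 fold change of 2.34. Whether cells of these other types were present, and any part of theirs in the values of Hes1 and Dll1, was not tested. With the normexp correction fitted on all identifiers, Fgf4 (-0.29), T (0.35) and Nes (0.015) lay under the limit, whereas Axin2 (0.94), Cdx1 (0.90) and Sp5 (0.75) stayed past it, and Nanog (0.75) and Utf1 (-0.59) came to lie past it. Nes was also under it with the other normexp fit (0.45) and with 16 added to each signal (0.48), and Gsc ran from 0.043 to 2.34 over the settings.

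Other ways of processing the signals were tried on the 5 detected genes. Each gene kept its sign in every setting that gave it a value. Settings that change only detection, the minimum signal or the table cannot alter the ratio of a gene detected on both arrays. For Notch3, Jag2, Hes1 and Hey1, the same sign in those settings was therefore fixed in advance. Hes1 and Dll1 fell under the limit in 1 setting, the normexp correction fitted on all identifiers, with log2 fold changes of 0.29 and -0.077. The same correction fitted on identifiers with 1 probe gave 0.72 and -1.39.

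**Figure D4:**
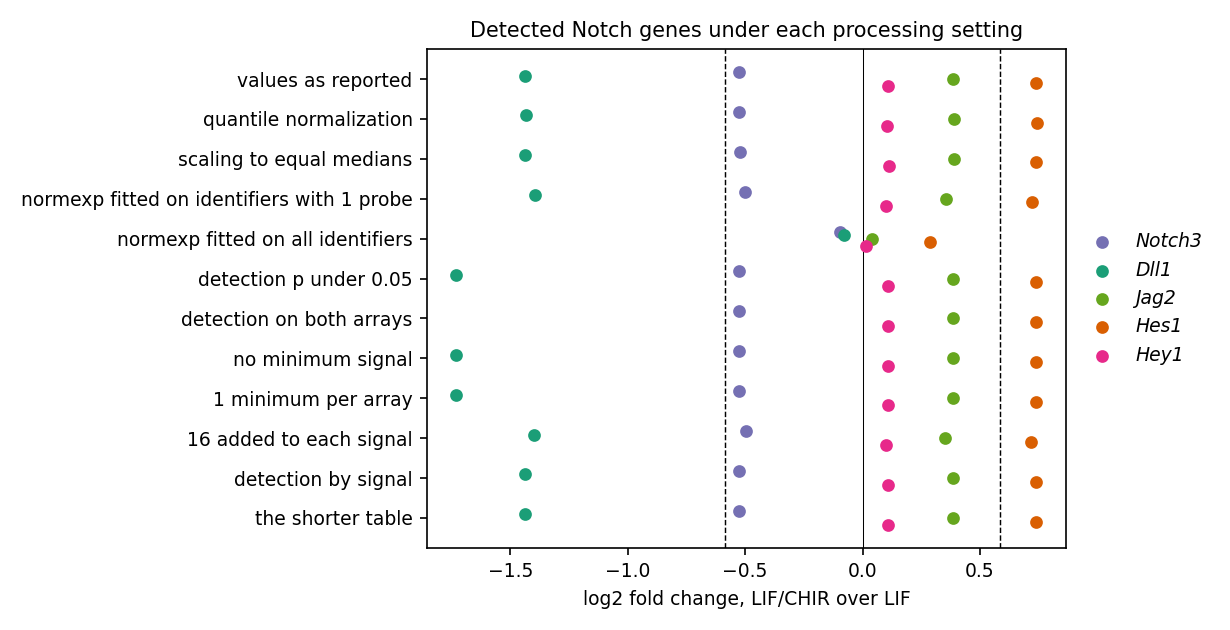
Log2 fold change of LIF/CHIR over LIF for the 5 detected Notch genes as reported and under 11 other processing settings, with dashed lines at 1.5-fold. Outside the normexp correction fitted on all identifiers, Hes1 lies between 0.72 and 0.74, Notch3 between -0.53 and -0.50 and Dll1 between -1.73 and -1.39. Dll1 has no value where detection on both arrays is required.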

How the data were processed

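Total RNA was biotin-labelled and hybridized to an Illumina mouse beadchip, 1 array per condition. For 30774 identifiers per array, the authors deposited linear signal intensity, which can be negative, together with a detection p-value. Software and normalization are not given in the sources used here. Signals were already background-subtracted, with medians of 10.5 (LIF) and 10.4 (LIF/CHIR), and all 11702 identifiers of the shorter table, named as normalized, have the same values in the longer one. With the detection limit at 0.01, the LIF array had 9021 detected identifiers and the LIF/CHIR array 9174.

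Identifiers with both detection p-values at multiples of 1/936 (23355), 936 being taken as the number of negative controls, were treated as 1 probe, and the other 7419 as several. For 6582 identifiers with p-values of 0 on both arrays, including 4 of the genes described, this class is undetermined. Signals below the lowest detected signal of their class and array (51.9 and 47.1 for 1 probe, 15.1 and 14.8 for several) were raised to it, which makes a fold change a bound. Log2 fold changes were computed in Python 3.11.15 with pandas 2.3.3 and numpy 2.4.6, normexp corrections with an offset of 16 in limma 3.58.1 under R 4.3.3, and plots with matplotlib 3.10.9. The calculation was tested on simulated data, with every identifier treated as 1 probe and changes added only to bright identifiers detected on both arrays. A fall below detection, as for Dll1, was not among those changes. Levels of different probes were not compared, and the number of arrays limits the precision.

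Of 107 list entries, 87 were matched by Entrez gene number and 16 by symbol, and 1 further marker is not reported here. Every one of the 10 genes was named, and of the other pathway genes those past 1.5-fold and the extremes of each list. Of the markers, Axin2, Sp5, Pou5f1 and those past 1.5-fold were named. Notch4, Rbpj, Maml2, Snw1 and other markers were named after their values were seen. The genes and lists were chosen with earlier results of these data known. Promoter sequences are from RefSeq, assembly GRCm38.p6, and the files name no genome build.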

Additional observations from a re-analysis of the deposited data

How the results depend on the processing

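Processing alternatives were quantile normalization, scaling to equal medians, both normexp fits, detection at 0.05, detection required on both arrays, ratios without a minimum, 1 minimum per array, 16 added to each signal, the shorter table and a limit of 2-fold. Detection by signal was added after seeing the data. Normexp fitted on all identifiers gave log2 fold changes of 0.29 for Hes1 and -0.077 for Dll1, left 0 of the 10 genes past 1.5-fold in either direction, and 55 identifiers higher and 49 lower. Its 1 higher and 1 lower wider pathway genes were Kat2a and Mib2, in place of Dner and Hes6. Its fitted background in LIF had a mean of 125.1 and an SD of 588.4, against -0.025 and 15.4 when fitted on identifiers with 1 probe. Both fits used the same background-subtracted signals, with a median of 10.5 in LIF, and why their backgrounds differ was not tested. Where both arrays had to detect a gene, Dll1 dropped out and 0 of the 10 were lower. At 2-fold, 0 were higher and Dll1 was still lower, beside 78 identifiers higher and 54 lower, and 0 of the wider pathway were lower. A detection p-value under 0.05 gave 479 identifiers higher and 519 lower, against 288 and 304, and admitted Notch1 at -0.18. The count of wider pathway genes higher was 2 in place of 1 with normexp fitted on identifiers with 1 probe, detection at 0.05, no minimum signal, 1 minimum per array and 16 added to each signal, the second being the coactivator gene Maml2 (0.66 to 0.88, against 0.40). The other 119 values stayed on their side of the limit or, for counts, within 1.5 times. Some of these could not change, since detection and minimum settings leave the ratio of a gene detected on both arrays as it was. No paired analysis was possible because the design has only 1 array for each condition, and none could be left out.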

Other observations

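The array's own annotation gives a second view of the pathway, chosen after the values were seen. It assigns 35 identifiers to the Notch signaling pathway, of which 7 are among the 10 genes described above. Of the 35, 13 were detected, 1 of them at least 1.5-fold lower (Dll1) and 0 at least 1.5-fold higher, with a median log2 fold change of 0.020. Among all identifiers 31.2% were detected, and of those 3.16% were at least 1.5-fold lower and 3.0% higher. Hes1, Hes5 and Hey1 do not carry this annotation, so that the gene past the limit upward among the 10, Hes1, is not counted there. Of the 9 annotated identifiers in none of the pathway lists, 2 were detected, Akt1s1 with a log2 fold change of 0.21 and Nle1, known to modulate Notch activity, with -0.03.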
